A study of Mus musculus with 12 samples.

Results

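The IL-1 family transcripts described here were 8 genes taken by name from the deposited expression tables. They were the agonists Il1a, Il1b and Il18, the antagonists Il1rn and Il18bp, and the receptors Il1r1, Il1rap and Il1r2. Each gene had a single row, out of 23847 rows in all. Messenger RNA was sequenced from bone marrow-derived macrophages (BMDMs) of wild-type C57BL/6 mice aged 8 to 12 weeks, which had been grown for 6 days in L929 supernatant as the source of M-CSF. The control group received neither IL-4 nor LPS, the IL-4 group received IL-4 at 20 ng/ml for 24 h, the LPS group received LPS at 100 ng/ml for 3 h, and the IL-4+LPS group was pretreated with IL-4 for 24 h before LPS was added for 3 h. The labels and the study's methods differ in the unit of the LPS dose, and that of the labels is used. Each of the 4 groups held 3 samples, and the comparisons ask whether earlier exposure to IL-4 changes the LPS response of these genes. Values are FPKM, fragments scaled by transcript length and by the mapped fragments of the sample, which allow levels of different genes to be set side by side.

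IL-1α and IL-1β bind the receptor IL-1R1, which then recruits the accessory chain encoded by Il1rap and passes the signal through MyD88 and the IRAK kinases to NF-κB. The receptor antagonist encoded by Il1rn occupies IL-1R1 without recruiting the accessory chain, and the decoy receptor encoded by Il1r2 binds IL-1 without signalling. IL-1β and IL-18 are made as precursors that caspase-1 cleaves in inflammasomes, and the secreted protein encoded by Il18bp binds IL-18 and keeps it from its receptor. In macrophages, LPS is a classical inducer of the IL-1β precursor through Toll-like receptor 4. The measurements below are of transcripts, so they say nothing of cleavage or release.

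The bases before the transcription start are shown for the agonist genes of the IL-1 receptor, which had the largest differences between LPS and control among the 8 genes, and for 2 start sites of Il1rn, the antagonist that was lower after IL-4. Each line gives the 250 bases that end just before a RefSeq start site (assembly GRCm38.p6), 5′ to 3′ on the strand of the gene. Capitals mark matches to TATAAA, to the AP-1 motif TGANTCA or to the STAT motif TTCNNNNGAA.
Il1a, chr2:129309973-129310222, minus strand: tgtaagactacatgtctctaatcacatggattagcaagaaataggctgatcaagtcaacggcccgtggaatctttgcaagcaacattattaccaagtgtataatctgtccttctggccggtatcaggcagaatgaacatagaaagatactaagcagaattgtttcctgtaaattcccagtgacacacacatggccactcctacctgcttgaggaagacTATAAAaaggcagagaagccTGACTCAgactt
Il1b, chr2:129371140-129371389, minus strand: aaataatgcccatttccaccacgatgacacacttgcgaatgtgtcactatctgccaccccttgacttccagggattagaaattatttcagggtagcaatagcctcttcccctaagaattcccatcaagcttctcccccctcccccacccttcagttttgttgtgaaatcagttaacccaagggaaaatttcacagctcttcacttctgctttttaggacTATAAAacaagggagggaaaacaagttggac
Il1rn, chr2:24336610-24336859, plus strand: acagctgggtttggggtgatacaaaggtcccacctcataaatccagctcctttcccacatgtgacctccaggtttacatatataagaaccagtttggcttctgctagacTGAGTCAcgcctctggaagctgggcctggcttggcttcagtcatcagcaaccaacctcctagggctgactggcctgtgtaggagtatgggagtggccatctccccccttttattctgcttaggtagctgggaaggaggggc
Il1rn, chr2:24345041-24345290, plus strand: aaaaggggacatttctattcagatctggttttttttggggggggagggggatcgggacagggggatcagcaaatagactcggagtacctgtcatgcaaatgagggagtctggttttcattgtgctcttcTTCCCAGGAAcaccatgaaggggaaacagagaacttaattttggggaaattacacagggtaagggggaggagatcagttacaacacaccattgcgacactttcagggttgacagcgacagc

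TATAAA stood 32 to 27 bases before the start of Il1a and 31 to 26 bases before that of Il1b. Il1a also held TGACTCA 12 to 6 bases before its start. In Il1rn, TGAGTCA lay 141 to 135 bases before the upstream start, and TTCCCAGGAA lay 121 to 112 bases before the start at 24345291. The deposited files give Il1rn a single value over 3 start sites, so the transcripts from these starts were not separated. Both strands were searched. Among 32851 such windows of mouse genes, TATAAA was found in 12.4% (also in that of Il18), TGANTCA in 6.75% and TTCNNNNGAA in 5.85% (also in that of Il18). The TATAAA match of Il18 was on the other strand, 175 to 170 bases before the start, unlike those of Il1a and Il1b. The other motifs searched in the 11 windows of the 8 genes were the κB decamer by name (7.25% of all windows; Il1r1 only), TTCNNNGAA (7.02%; Il1r2 only), TTNNGCAA (9.56%; Il18bp and Il1r1), GAGGAA (23.3%; Il1a only) and the IRF motif by name (2.98%; none of the 8 genes), of which TTCNNNGAA can overlap TTCNNNNGAA. A match is a description of the letters and not evidence of binding.

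Before the results, replicate 1 of every group stood apart from replicates 2 and 3. The first component of the variation within groups held 28.15% of it and gave scores of 15.5 to 33.3 to the 4 samples of replicate 1, against -18.6 to -4.45 to the other 8. The study's methods name separate animals and more than a single experiment but do not say which sample came from which. Results whose call changed without replicate 1 are therefore also given from replicates 2 and 3 alone. That fit has 2 samples in each group and leaves out samples that were seen to stand apart, which narrows the spread. Its intervals and p-values therefore overstate the certainty. Treatment labels were checked against their usual response genes. By limma, 6 of 6 measured IL-4 response genes were called higher in IL-4 than in control (16% of all rows). In LPS minus control, 6 of 6 LPS response genes were called higher (16.9% of all rows). All 7 measured macrophage markers were expressed, with a summed level of 15990 to 21250 FPKM in the control and LPS samples and 6920 to 8440 FPKM in the samples given IL-4. Most of that sum was Lyz2, the lysozyme gene, with group means of 16116 FPKM in control and 4873 FPKM in IL-4. From control to IL-4, Emr1 went from 1003 to 454 FPKM, Csf1r from 909 to 629 FPKM, Itgam from 234 to 165 FPKM and Mertk from 31.9 to 11.3 FPKM. Cd68 (1779 and 1538 FPKM) and Fcgr3 (745 and 671 FPKM) differed less. Between IL-4 and control, 0 of the 7 markers were called higher and 5 lower by limma (16% and 21% of all rows). Neutrophil markers, granule and calprotectin genes that a marrow culture can carry over, summed to 235.7 to 1167 FPKM, with Cxcr2 under 1 FPKM in every sample, and their sum was lowest in replicate 1 within each group. Summed B cell, NK cell and fibroblast markers stayed under 1 FPKM in every sample, mast cell and basophil markers reached 2.06 FPKM and dendritic cell markers 3.72 FPKM. T cell markers, mostly Cd4, summed to 6.16 to 11.7 FPKM in the samples without IL-4 and 0.277 to 0.839 FPKM in those with it. The group means of Cd3d, Cd3e, Cd3g and Cd8a were at most 0.0656 FPKM. The part of these markers in the results was not tested. FPKM totals ran from 457583 to 495025, and relative depth, read from the steps of low values, spanned 0.991 to 3.3 with control replicate 1 set to 1, while the absolute depth is unknown. Replicate 1 was the shallowest of each group, at 0.991 to 1.03 against 1.27 to 3.3 for the other 8 samples.

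Of the 8 genes, 7 reached 1 FPKM in at least 1 sample and entered the test, limma on log2(FPKM + 1) over 11191 rows. Il1r2 did not. Il1a passed this minimum only through the LPS-exposed groups and Il1r1 only through IL-4+LPS replicates 2 and 3, so counts over these 7 genes are descriptions. Without the minimum, the calls given below for these genes held (Il1a in LPS minus control, limma, adjusted p = 0.00145, and in IL-4+LPS minus IL-4, 0.00036; Il1r1 in IL-4 minus control, 0.00643, and in IL-4+LPS minus LPS, 0.0177), except that of Il1r1 in LPS minus control. In LPS minus control, 5 of the 7 genes rose and 0 fell, where 16.9% of all rows tested rose and 57.7% fell. IL-4 minus control had 1 gene higher and 2 lower (16% and 21% of all rows). In the pretreated cells, IL-4+LPS minus IL-4 had 5 higher and 0 lower (15% and 57.9% of all rows). In the comparison of the LPS-exposed cells, IL-4+LPS minus LPS, 2 genes were higher and 2 lower (15% and 15.8% of all rows). The interaction, which subtracts the LPS effect in naive cells from the LPS effect in pretreated cells, passed for 1 gene, Il1rap, with 0 in the other direction (4.58% and 4.63% of all rows). The median log2 difference of the 7 genes was 1.13 in LPS minus control, against -0.44 for all rows, and -0.00 in IL-4+LPS minus LPS, against -0.03 for all rows. In LPS minus control, 1887 rows were called higher and 6462 lower, a split that became 2966 and 4454 with median scaling and 2903 and 4326 with quantile normalization. In IL-4+LPS minus IL-4 the split of 1682 and 6474 became 2629 and 4057, and 2461 and 4173. LPS minus control and IL-4 minus control share the control samples, and LPS minus control and IL-4+LPS minus LPS share the LPS samples. Replicates 2 and 3 alone called more of all rows. The share was 50.9% in IL-4 minus control, against 37.0% with 12 samples, and 81.3% against 72.9% in IL-4+LPS minus IL-4. In IL-4+LPS minus LPS it was 46.9% against 30.9%, and in the interaction 25.6% against 9.2%.

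**Figure D1:**
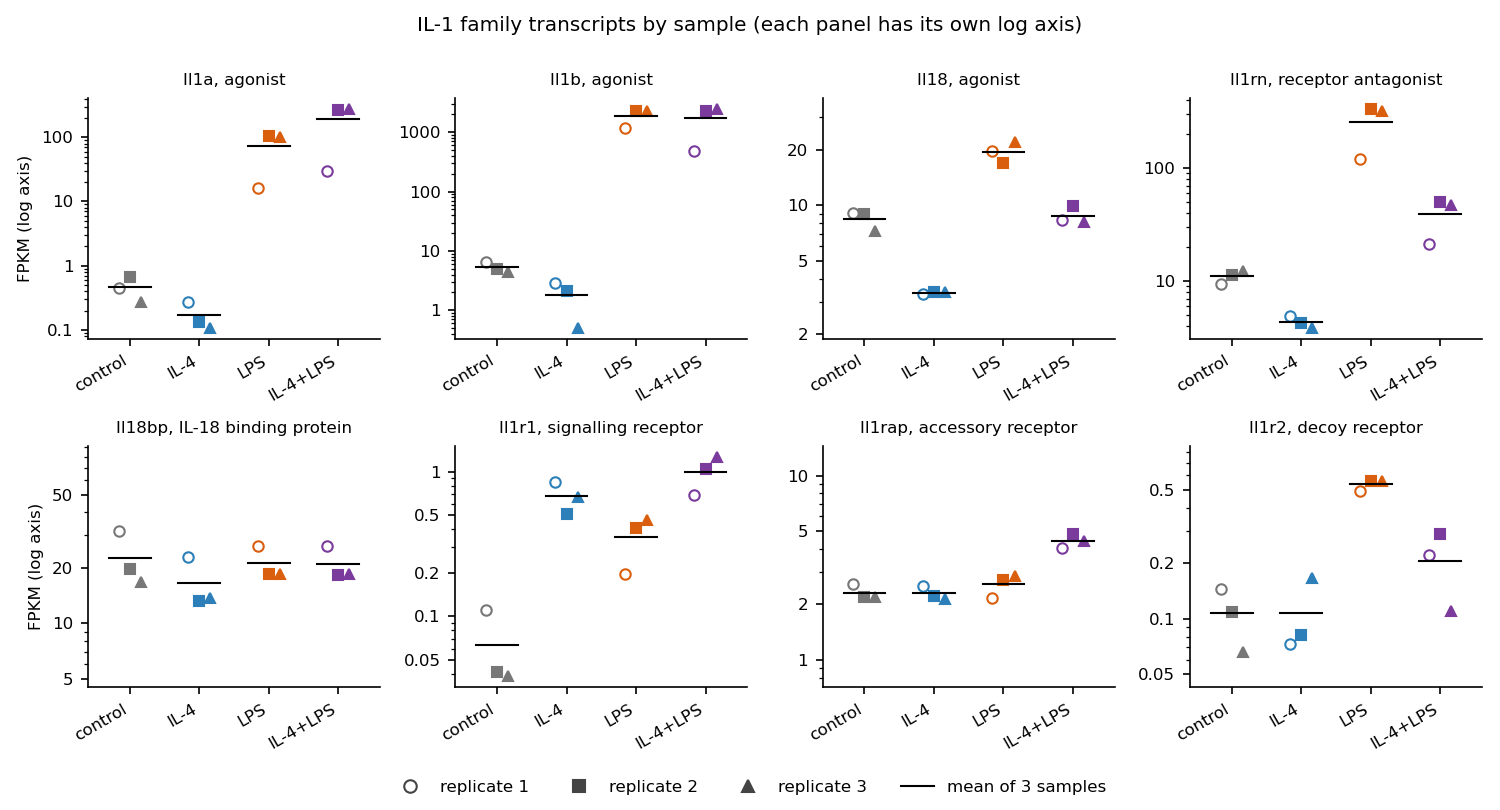
FPKM of the 8 genes in each of the 12 samples, on a log axis for each gene, with the mean of the 3 samples of a group as a bar. Open circles are replicate 1, which lies far below replicates 2 and 3 for Il1a, Il1b and Il1rn in the groups given LPS and above them for Il18bp in every group.

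Il1b, which encodes the IL-1β precursor, was among the most abundant transcripts after LPS and stayed so after IL-4 pretreatment. It stood at 6.44, 5.04 and 4.44 FPKM in control replicates 1 to 3 and at 2.91, 2.08 and 0.510 FPKM in IL-4. In LPS it reached 1187, 2247 and 2314 FPKM, and in IL-4+LPS 478, 2317 and 2500 FPKM. Every LPS-exposed sample was far above every sample without LPS, and the LPS and IL-4+LPS groups overlapped. By mean level Il1b was number 24 of all rows in LPS (1916 ± 632 FPKM, SD, n = 3) and number 31 in IL-4+LPS (1765 ± 1118 FPKM).

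The mean of Il1b was 361-fold higher in LPS than in control and 963-fold higher in IL-4+LPS than in IL-4. On the log2(FPKM + 1) scale these differences were 8.20 ± 0.59 (SE; limma, adjusted p = 5.85e-07) and 9.06 ± 0.59 (limma, adjusted p = 3.42e-07). IL-4+LPS and LPS differed by -0.38, with a 95% interval of -1.69 to 0.92 (limma, adjusted p = 0.671). The sign of that difference rested on IL-4+LPS replicate 1: it was 0.39 without that sample and 0.08 in replicates 2 and 3 alone (95% interval -0.63 to 0.79, adjusted p = 0.859). IL-4 alone gave values below control in all 3 samples, a difference of -1.25 that did not pass with 12 samples (95% interval -2.55 to 0.05, limma, adjusted p = 0.124) and was -1.41 in replicates 2 and 3 alone (adjusted p = 0.00803). It also passed without IL-4+LPS replicate 1 (adjusted p = 0.0190) and with only the compared groups in the fit (adjusted p = 0.0414). The interaction of Il1b was 0.87 with 12 samples (limma, adjusted p = 0.592) and 1.49 in replicates 2 and 3 alone (adjusted p = 0.0442). In a bulk sample, fewer cells of a kind and less RNA per cell cannot be told apart.

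Il1a, which encodes IL-1α, was nearly silent without LPS. Its values were 0.457, 0.660 and 0.273 FPKM in control, 0.269, 0.132 and 0.108 FPKM in IL-4, 16.3, 105 and 102 FPKM in LPS, and 30.1, 263 and 279 FPKM in IL-4+LPS. Replicate 1 was the lowest LPS-exposed sample in both groups, and the IL-4+LPS and LPS groups overlapped only because of it. The group means were 161-fold higher in LPS than in control (log2 difference 5.30 ± 0.85, SE, limma, adjusted p = 0.000197) and 1124-fold higher in IL-4+LPS than in IL-4 (6.82 ± 0.85, limma, adjusted p = 3.68e-05).

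Within each replicate number, Il1a was higher in IL-4+LPS than in LPS, by 1.84-fold, 2.51-fold and 2.73-fold. With all 12 samples the difference of 1.20 did not pass the test (95% interval -0.68 to 3.08, limma, adjusted p = 0.322). In replicates 2 and 3 alone it was 1.38 (95% interval 1.10 to 1.67, adjusted p = 0.000187), and without IL-4+LPS replicate 1 it was 2.25 (adjusted p = 0.0239). The interaction of Il1a was 1.52 with 12 samples (limma, adjusted p = 0.501) and 1.76 in replicates 2 and 3 alone (adjusted p = 0.000978). IL-4 minus control was -0.32 with 12 samples (limma, adjusted p = 0.810) and -0.38 in replicates 2 and 3 alone (adjusted p = 0.0370). Among the alternatives run, these 3 differences of Il1a were called only where samples of replicate 1 were left out. The neutrophil marker sum was 568 FPKM in LPS replicate 1 against 1167 and 947 FPKM in replicates 2 and 3, and 469 FPKM in IL-4+LPS replicate 1 against 942 and 659 FPKM, and its part in the replicate difference of Il1a, Il1b and Il1rn was not tested.

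Il18, which encodes the IL-18 precursor, was present in every sample and moved less than the IL-1 agonists. It measured 9.04, 8.92 and 7.22 FPKM in control, 3.29, 3.39 and 3.38 FPKM in IL-4, 19.6, 16.9 and 22.1 FPKM in LPS, and 8.36, 9.90 and 8.13 FPKM in IL-4+LPS. No sample of the LPS group overlapped another group, no IL-4 sample did either, and the control and IL-4+LPS groups lay in the same range. IL-4 lowered the mean by 2.50-fold without LPS (log2 difference -1.10 ± 0.11, SE, limma, adjusted p = 3.89e-05) and by 2.22-fold with LPS (-1.06 ± 0.11, limma, adjusted p = 5.40e-05). LPS raised it by 2.33-fold without IL-4 (1.13 ± 0.11, limma, adjusted p = 6.38e-06) and by 2.63-fold after IL-4 (1.17 ± 0.11, limma, adjusted p = 6.03e-06). The interaction was 0.04, with a 95% interval of -0.31 to 0.39 (limma, adjusted p = 0.920). These 4 calls for Il18 held in each fit with a single sample left out and in replicates 2 and 3 alone.

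Il1rn, which encodes the IL-1 receptor antagonist, rose with LPS and was far lower when IL-4 came first. The values were 9.45, 11.4 and 12.4 FPKM in control, 4.87, 4.28 and 3.87 FPKM in IL-4, 120, 336 and 319 FPKM in LPS, and 21.2, 50.2 and 47.2 FPKM in IL-4+LPS. No groups overlapped, and their order was LPS, IL-4+LPS, control, IL-4. LPS raised the mean by 23.3-fold without IL-4 (log2 difference 4.29 ± 0.40, SE, limma, adjusted p = 3.44e-06) and by 9.11-fold after IL-4 (2.84 ± 0.40, limma, adjusted p = 8.54e-05).

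In the LPS-exposed cells, the Il1rn mean was 6.53-fold lower after IL-4 (log2 difference -2.63 ± 0.40, SE, limma, adjusted p = 0.000598). The level was lower in 3 of 3 replicate numbers, by 5.63-fold, 6.70-fold and 6.76-fold. In each of the 12 fits with a sample left out the difference passed, and it ran from -3.11 to -2.24. The fall with IL-4 alone, 2.55-fold, was less secure: the difference of -1.17 passed with 12 samples (limma, adjusted p = 0.0394), was lost in each of the 6 fits without a control or an IL-4 sample (adjusted p up to 0.108) and with median scaling (0.0529), without the expression minimum (0.114) and in a Tukey test per row (0.286), and was -1.34 in replicates 2 and 3 alone (adjusted p = 1.83e-05). The interaction of -1.46 did not pass (95% interval -2.70 to -0.22, limma, adjusted p = 0.139). It was -1.38 in replicates 2 and 3 alone (adjusted p = 0.000242) and -1.94 without LPS replicate 1 (adjusted p = 0.0155). With a block for the replicate number the same -1.46 passed (limma, adjusted p = 0.0482), in a fit that called 20.0% of all rows for the interaction.

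Il18bp, which encodes the IL-18 binding protein, passed the test in none of the 5 comparisons in the main fit (limma, adjusted p 0.250 to 0.999). The levels were 31.6, 19.8 and 16.8 FPKM in control, 23.0, 13.2 and 13.7 FPKM in IL-4, 26.4, 18.6 and 18.5 FPKM in LPS, and 26.4, 18.4 and 18.6 FPKM in IL-4+LPS. Replicate 1 was the highest sample of each group, and all groups overlapped. IL-4+LPS and LPS differed by -0.00 on the log2 scale, with a 95% interval of -0.60 to 0.59 in all samples (limma, adjusted p = 0.999) and of -0.19 to 0.18 in replicates 2 and 3 alone (adjusted p = 0.968). The difference between LPS and control, -0.07 (limma, adjusted p = 0.827), turned to 0.28 with median scaling and to 0.09 with quantile normalization, both short of the threshold. Replicates 2 and 3 alone gave -0.41 for IL-4 minus control (adjusted p = 0.00492), 0.43 for IL-4+LPS minus IL-4 (adjusted p = 0.00184) and 0.41 for the interaction (adjusted p = 0.0375). With median scaling of all 12 samples, IL-4+LPS minus IL-4 was 0.69 (adjusted p = 0.0465). A fit with a block for the replicate number called IL-4 minus control (-0.42, limma, adjusted p = 0.00320) and IL-4+LPS minus IL-4 (0.35, 0.00395). It also called the interaction (0.42, 0.0380). That fit called 49.9%, 81.6% and 20.0% of all rows in these comparisons.

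**Figure D2:**
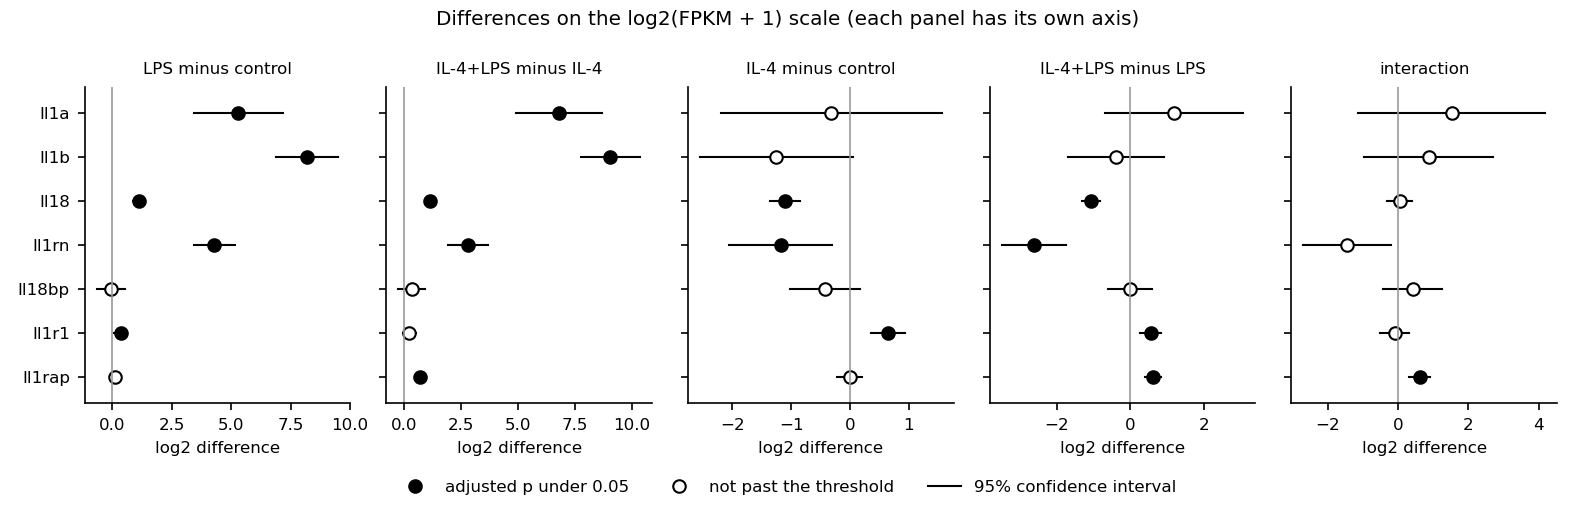
Log2 differences of the 7 tested genes with 95% confidence intervals in the 5 comparisons, on the log2(FPKM + 1) scale, filled where the adjusted p was under 0.05. In IL-4+LPS minus LPS, Il1rn (-2.63) and Il18 (-1.06) lie left of 0, Il1r1 (0.55) and Il1rap (0.61) right of it, and the intervals of Il1a, Il1b and Il18bp span it.

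Il1r1, which encodes the signalling receptor for IL-1, was a low transcript that was higher in the cells given IL-4. It was at 0.110, 0.0412 and 0.0389 FPKM in control, 0.849, 0.508 and 0.670 FPKM in IL-4, 0.195, 0.408 and 0.461 FPKM in LPS, and 0.684, 1.04 and 1.26 FPKM in IL-4+LPS. The control samples were below all others, every IL-4+LPS sample was above every LPS sample, and the IL-4 and IL-4+LPS groups overlapped. The mean was 10.7-fold higher in IL-4 than in control and 2.81-fold higher in IL-4+LPS than in LPS. The first of these folds rests on a control mean near 0, 0.0634 FPKM, which was below that of Il1r2 (0.107 FPKM). On the log2(FPKM + 1) scale, which understates changes this low, the differences were 0.65 ± 0.13 (SE, limma, adjusted p = 0.00287) and 0.55 ± 0.13 (limma, adjusted p = 0.00815), the latter short of the threshold in a Tukey test per row (adjusted p = 0.0548). The rise with LPS alone, 0.34 (limma, adjusted p = 0.0314), was lost in 4 of the 12 fits with a sample left out, namely without control replicate 2 or 3 or LPS replicate 2 or 3 (adjusted p up to 0.104), and also without the expression minimum (0.0539) and in a Tukey test per row (0.136). The IL-4+LPS and IL-4 groups differed by 0.25 (95% interval -0.04 to 0.53, limma, adjusted p = 0.107), by 0.44 in replicates 2 and 3 alone (adjusted p = 0.00291) and by 0.36 without IL-4+LPS replicate 1 (adjusted p = 0.0226). With all samples it was 0.65 after quantile normalization (adjusted p = 0.00563) and 0.41 after median scaling (adjusted p = 0.0237).

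Il1rap, the accessory chain shared by the receptors for IL-1, IL-33 and IL-36, was highest in the combined treatment. Its levels were 2.57, 2.19 and 2.19 FPKM in control, 2.53, 2.23 and 2.15 FPKM in IL-4, 2.17, 2.70 and 2.85 FPKM in LPS, and 4.07, 4.81 and 4.43 FPKM in IL-4+LPS. The first 3 groups overlapped, and every IL-4+LPS sample was above all of them. The mean in IL-4+LPS was 1.72-fold that in LPS (log2 difference 0.61 ± 0.10, SE, limma, adjusted p = 0.000918) and 1.93-fold that in IL-4 (0.72 ± 0.10, limma, adjusted p = 7.02e-05).

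IL-4 alone left Il1rap at -0.01 from control (95% interval -0.22 to 0.21, limma, adjusted p = 0.978), with a sign that turned under both scalings. LPS alone gave 0.11 (limma, adjusted p = 0.343), where the median of all rows was -0.44. Median scaling moved that median to -0.14 and quantile normalization to -0.12, and the Il1rap difference to 0.37 (adjusted p = 0.0120) and 0.69 (adjusted p = 0.000307). Without scaling, replicates 2 and 3 alone gave 0.24 (adjusted p = 0.0123). The interaction was 0.61 ± 0.14 (SE, limma, adjusted p = 0.0204) and 0.57 in replicates 2 and 3 alone (adjusted p = 0.00696). It missed the threshold without IL-4 replicate 2, IL-4 replicate 3 or IL-4+LPS replicate 2 (adjusted p up to 0.0598) and with quantile normalization (0.49, adjusted p = 0.0801). The sum of dendritic cell markers was 2.43 to 3.72 FPKM in IL-4+LPS and 1.66 to 2.49 FPKM in LPS, which overlap. It was at most 1.33 FPKM in the samples without LPS. From LPS to IL-4+LPS, the mean of Zbtb46 rose from 0.518 to 2.42 FPKM and that of Flt3 from 0.0979 to 0.150 FPKM. Ccr7 fell from 0.926 to 0.388 FPKM, Siglech from 0.383 to 0.191 FPKM and Xcr1 from 0.151 to 0.0870 FPKM. The part of these markers in the Il1rap differences was not tested.

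Il1r2, which encodes the decoy receptor, stayed under 1 FPKM in every sample. It read 0.146, 0.109 and 0.0663 FPKM in control, 0.0734, 0.0820 and 0.167 FPKM in IL-4, 0.495, 0.559 and 0.560 FPKM in LPS, and 0.221, 0.288 and 0.111 FPKM in IL-4+LPS. The LPS samples were above all others, and the other 3 groups overlapped. The smallest of these levels, scaled by relative depth, was taken as 1 fragment, which is an assumption. All levels then came out as whole multiples of that unit within 0.004. That gave 2, 2 and 3 fragments for the control samples and 1, 2 and 4 for the IL-4 samples. It gave 7, 20 and 11 for the LPS samples, and 3, 5 and 3 for the IL-4+LPS samples. Summed over a group and divided by its relative depth, that is 7.5 fragments for LPS, 2.6 for IL-4+LPS, 1.55 for IL-4 and 1.24 for control. In a fit without the expression minimum, Il1r2 rose with LPS (log2 difference 0.47, limma, adjusted p = 0.000125), and IL-4+LPS lay below LPS (-0.35, limma, adjusted p = 0.00327). The interaction in that fit was -0.35 (limma, adjusted p = 0.0448). Neutrophils are a known source of Il1r2. The sum of their markers was 568 to 1167 FPKM in LPS, 469 to 942 FPKM in IL-4+LPS, 375 to 969 FPKM in control and 236 to 449 FPKM in IL-4. Most of it was S100a8 and S100a9, with means of 258 and 299 FPKM in control and 340 and 409 FPKM in LPS. Ngp (76.7 and 92.5 FPKM) and Camp (15.4 and 28.0 FPKM) were also higher in LPS. Mpo (5.46 and 3.26 FPKM) and Elane (5.53 and 3.63 FPKM) were lower, and Ltf (16.4 and 16.8 FPKM) was about level. By limma, 0 of the 7 tested markers passed in LPS minus control, where 16.9% of all rows were higher and 57.7% lower. In IL-4+LPS minus LPS 0 passed as well (15% and 15.8% of all rows). IL-4 minus control had 0 markers higher and 2 lower (16% and 21% of all rows). IL-4+LPS minus IL-4 had 4 higher and 0 lower (15% and 57.9% of all rows). The part of these markers in the Il1r2 differences was not tested.

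Set side by side within a sample, the agonist and antagonist transcripts stood in different proportion in the 4 groups. The ratio of Il1rn to Il1b FPKM was 1.47, 2.26 and 2.78 in control and 1.68, 2.06 and 7.59 in IL-4, so the antagonist was the more abundant without LPS. It was 0.101, 0.150 and 0.138 in LPS and 0.0444, 0.0217 and 0.0189 in IL-4+LPS. The IL-4+LPS ratios were below every LPS ratio, which in turn were below every ratio without LPS. In other words, Il1b exceeded Il1rn by 6.68-fold to 9.93-fold in LPS and by 22.5-fold to 52.9-fold in IL-4+LPS.

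The ratio of Il1a to Il1b was 0.0138, 0.0466 and 0.0442 in LPS and 0.0628, 0.114 and 0.112 in IL-4+LPS, without overlap. For Il18bp to Il18, the ratio was 2.22 to 3.49 in control, 3.90 to 7.01 in IL-4, 0.839 to 1.35 in LPS and 1.86 to 3.16 in IL-4+LPS. The LPS samples thus carried the least Il18bp per Il18, and the IL-4 samples the most. Il1r2 to Il1r1 was 1.21 to 2.65 in the samples without IL-4 and 0.0865 to 0.323 in those with it. This ratio rests on few fragments of Il1r2 and on low values of Il1r1. These ratios are descriptions and were not tested.

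**Figure D3:**
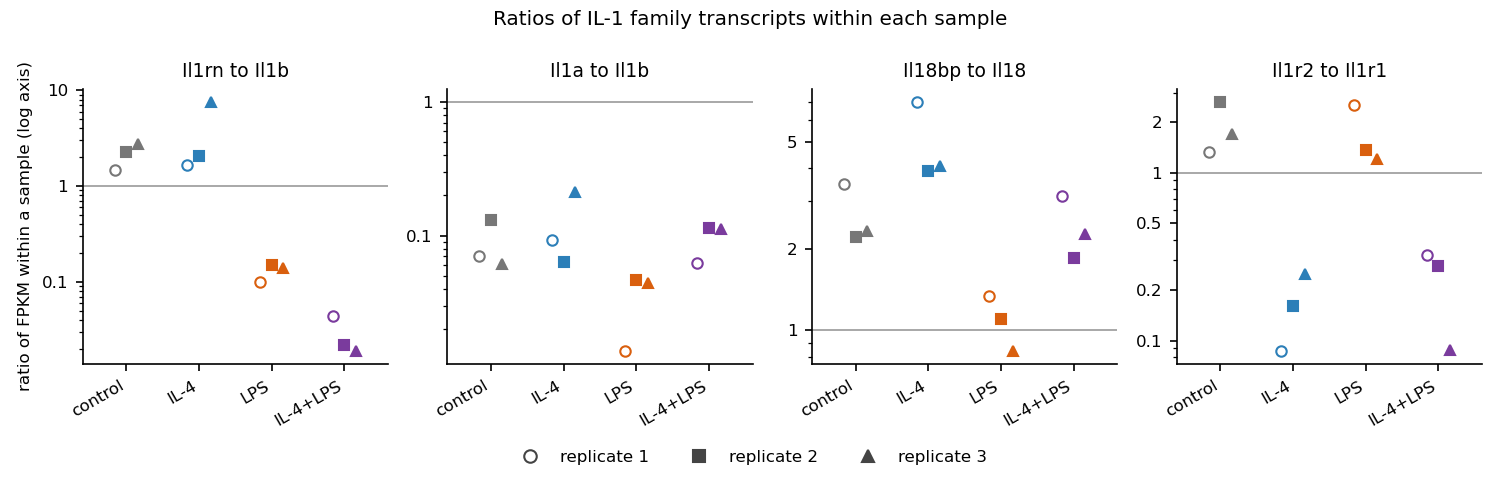
Ratio of FPKM values within each of the 12 samples for 4 pairs of genes, on log axes, with a grey line at 1 and open circles for replicate 1. The ratio of Il1rn to Il1b is above 1 in the 6 samples without LPS, 0.101 to 0.150 in LPS and 0.0189 to 0.0444 in IL-4+LPS.

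**Figure D4:**
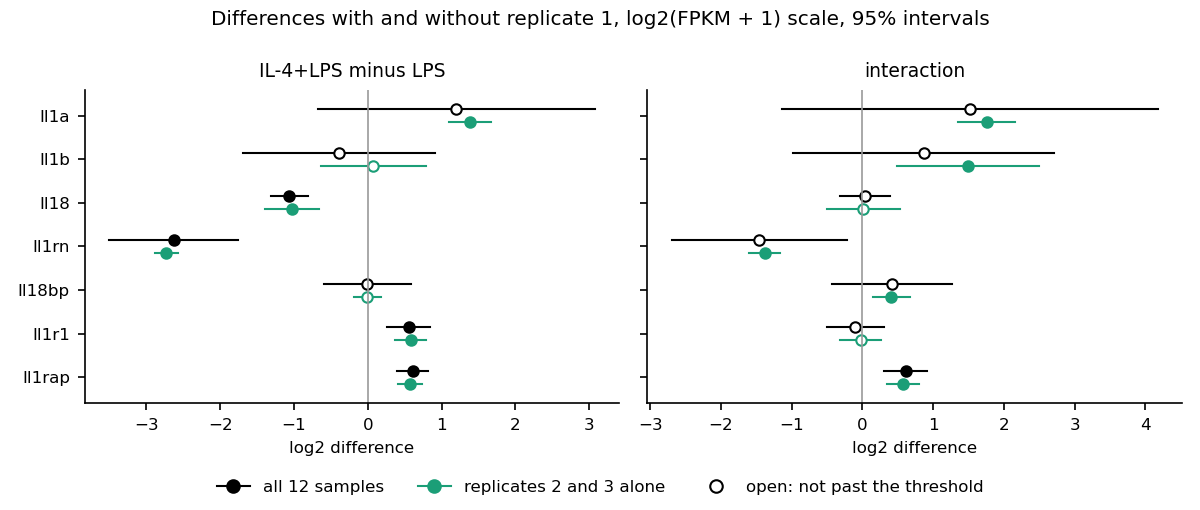
Log2 differences of the 7 tested genes with 95% confidence intervals from all 12 samples (black) and from replicates 2 and 3 alone (green), filled where past the threshold. Between these fits, the green one alone calls Il1a in IL-4+LPS minus LPS (1.38) and the interactions of Il1a (1.76), Il1b (1.49), Il1rn (-1.38) and Il18bp (0.41), while Il1rn, Il18, Il1r1 and Il1rap keep their calls in IL-4+LPS minus LPS.

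Among the other ligands of the family, 6 were in the files under the symbols listed and 1 reached the expression minimum. That was Il1f9, which encodes the agonist IL-36γ, and which passed the minimum only through the LPS-exposed groups. It stood at 0.518, 0.345 and 0.402 FPKM in control, 0.116, 0.130 and 0 FPKM in IL-4, 2.90 to 8.55 FPKM in LPS, and 0.814, 1.45 and 1.75 FPKM in IL-4+LPS. No groups overlapped, and LPS was the highest. The mean in IL-4+LPS was 4.59-fold below that in LPS (log2 difference -1.54), a difference that passed in the fit without the expression minimum (limma, adjusted p = 0.0104).

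Of the 7 other receptors of the family, 2 reached the minimum, both through samples given IL-4. Il1rl1, which encodes the IL-33 receptor ST2, was at 0.171, 0.256 and 0.282 FPKM in control, 2.60, 1.67 and 2.03 FPKM in IL-4, 0.199, 0.0431 and 0.0832 FPKM in LPS, and 1.30, 0.647 and 0.749 FPKM in IL-4+LPS. Every sample given IL-4 was above every sample without it. In the fit without the expression minimum, its difference was 1.32 in IL-4 minus control (limma, adjusted p = 0.000344) and 0.76 in IL-4+LPS minus LPS (limma, adjusted p = 0.00759). Il1rl2, which encodes the IL-36 receptor, was at 0.0952, 0.107 and 0.0433 FPKM in control, 2.59, 1.96 and 2.16 FPKM in IL-4, 0.461, 0.548 and 0.233 FPKM in LPS, and 1.97, 1.39 and 1.66 FPKM in IL-4+LPS. It followed the same division by IL-4, with differences in that fit of 1.58 (limma, adjusted p = 3.48e-05) and 0.92 (limma, adjusted p = 0.000744). The chains of the IL-18 receptor were low throughout, with group means of 0.0283 to 0.0665 FPKM for Il18r1 and 0.217 to 0.573 FPKM for Il18rap.

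All 16 listed genes of signal transduction below the IL-1 and IL-18 receptors were tested. In IL-4+LPS minus LPS, 0 were higher and 5 lower (15% and 15.8% of all rows), with a list median of -0.26 against -0.03 for all rows. Irak3, an inhibitory member of the IRAK family, differed most: its mean was 60.9 ± 4.49 FPKM in LPS and 16.6 ± 0.566 FPKM in IL-4+LPS (SD, n = 3; log2 difference -1.81, limma, adjusted p = 3.92e-07). The other genes that were lower were Irak2, of the same family, Myd88, the receptor adaptor, Peli1, a ubiquitin ligase, and Tab2, a partner of TAK1. The differences of these other genes were -0.63 to -0.47 (limma, adjusted p 0.00197 to 0.0137). Myd88, Peli1 and Tab2 lost this call in a Tukey test per row. These 5 genes all rose with LPS alone. In that comparison 6 of the 16 were higher and 5 lower (16.9% and 57.7% of all rows), with a list median of -0.01 against -0.44 for all rows. In IL-4 minus control, 1 of the 16 was higher and 8 lower (16% and 21% of all rows), with a list median of -0.24 against -0.05 for all rows. Of these calls, that of Map3k7 was lost in 5 of the 12 fits with a sample left out, and those of Peli3 and Ecsit in 3 each. Map3k7, Peli3, Ecsit, Myd88, Peli1 and Tab2 lost theirs in a Tukey test per row. The calls of Irak2, Irak3 and Peli2 held in every fit.

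All 10 listed genes of the cleavage and release of IL-1β and IL-18 were tested. In IL-4+LPS minus LPS, 1 was higher and 3 lower (15% and 15.8% of all rows), with a list median of -0.04 against -0.03 for all rows. Nlrp3, the sensor of the NLRP3 inflammasome, had a mean of 11.8 ± 1.16 FPKM in control, 1.79 ± 0.443 FPKM in IL-4, 269 ± 4.36 FPKM in LPS and 136 ± 17.9 FPKM in IL-4+LPS (SD, n = 3; IL-4+LPS minus LPS -0.99, limma, adjusted p = 0.000177). Casp4, the caspase that senses cytosolic LPS (-0.88, adjusted p = 0.00307), and Pycard, the inflammasome adaptor ASC (-0.48, adjusted p = 0.00703), were also lower by limma, and P2rx7, the ATP-gated channel that triggers release, was higher (0.46, adjusted p = 0.0333). P2rx7 lost its call in 3 of the 12 fits with a sample left out, and it and Pycard lost it in a Tukey test per row. Casp1, whose product cleaves both precursors, stood at 176 ± 28.2 FPKM in LPS and 160 ± 32.7 FPKM in IL-4+LPS, and Gsdmd, the pore-forming gasdermin, at 110 ± 4.91 and 117 ± 8.16 FPKM. Neither of them passed the test in this comparison.

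**Figure D5:**
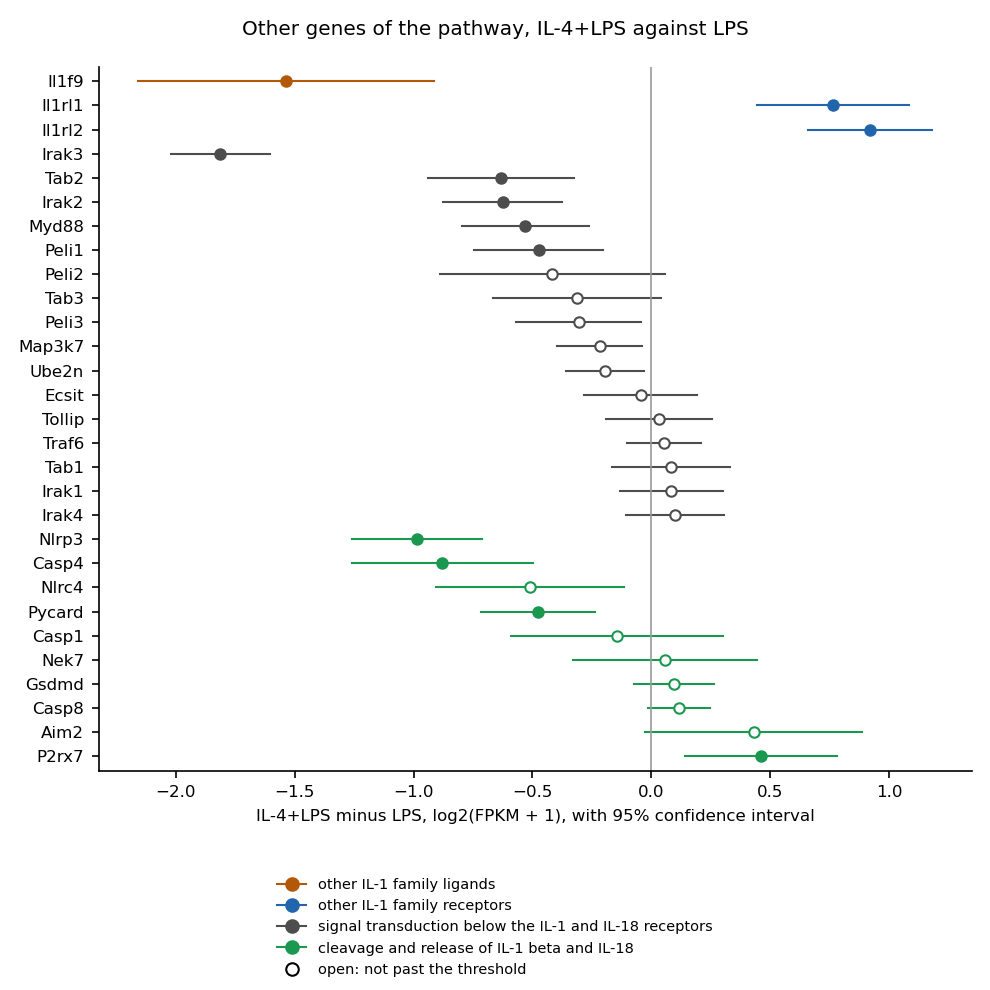
Log2 differences between IL-4+LPS and LPS, with 95% confidence intervals, of the other family ligands and receptors, the signal transduction genes and the cleavage and release genes that were tested, filled where the adjusted p was under 0.05. Irak3 (-1.81) and Il1f9 (-1.54) lie furthest left, and Il1rl1 (0.76) and Il1rl2 (0.92) furthest right.

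Across the 12 samples, on log2(FPKM + 1), Il1a and Il1b followed each other (Pearson r 0.967), and Il18 was closer to Il1rn (0.916) than to Il1b (0.774). Il18bp had an r of 0.0761 to 0.38 with the other members compared. Among 10254 rows with a mean of at least 1 FPKM, those most like Il1a were Nos2, which encodes inducible nitric oxide synthase (r 0.996), Hdc, which encodes histidine decarboxylase (0.994), and 1110038F14Rik (0.994). Nos2 had group means of 0.130 FPKM in control, 0.0817 FPKM in IL-4, 61.3 FPKM in LPS and 189 FPKM in IL-4+LPS. Rapgef2, Parp12 and Pde4b were most like Il1b (r 0.996 each), and Map4k4 (0.991), Stat3 (0.989) and Sh3bgrl2 (0.987) most like Il1rn. For Il18 the closest rows were Pilrb1 (0.987), Il13ra1 (0.983) and Kbtbd2 (0.981), and for Il18bp Arid4a (0.948), Cep57 (0.942) and Cnot4 (0.933). Nearest to Il1rap were A630072M18Rik (0.972), Ubxn2a (0.966) and Tslp (0.963), the last at 0.439 FPKM in LPS and 3.34 FPKM in IL-4+LPS. The 12 samples come from 4 groups that differ widely, so these correlations describe the groups and carry no test.

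The genes lie in the mouse genome (mm10) as follows. Il1a (chr2:129299610-129309972) and Il1b (chr2:129364580-129371120) are neighbours 54.6 kb apart on the minus strand, and Il1rn (chr2:24336860-24351491, plus strand) is 105 Mb away on the same chromosome. Il1r2 (chr1:40084768-40125226) and Il1r1 (chr1:40225080-40316177) open a row of family receptors on the plus strand that runs over Il1rl2, Il1rl1, Il18r1 and Il18rap within 465 kb. Within that row Il1r1, Il1rl2 and Il1rl1 were called higher in IL-4 minus control (16% of all rows). They passed the expression minimum only through samples given IL-4. Il1r2, Il18r1 and Il18rap did not reach it. In the fit without the minimum Il1r2 differed by 0.0003 and was not called. The Il18r1 groups overlapped, and the mean of Il18rap went from 0.217 to 0.285 FPKM without overlap. Il18 is at chr9:50565368-50581837 (plus strand), Il18bp at chr7:102015077-102018155 (minus strand) and Il1rap at chr16:26581705-26725147 (plus strand). The files start Il18 10541 bases and Il1r2 10689 bases downstream of their GENCODE vM21 starts. Genes on the opposite strand overlap Il1a (Gm14023, over 8217 bases), Il1b (Il1bos, 1224 bases), Il1r2 (Gm16894, 1084 bases) and Il1rap (Gm20319, 10702 bases). The library kit does not mark strand, so reads of these pairs cannot be told apart where their exons overlap.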

How the data were processed

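Polyadenylated RNA from 12 macrophage samples, 3 in each of 4 groups, was sequenced as paired reads with a kit that does not mark strand. The authors mapped reads to mm10 with TopHat2 2.0.7 and computed FPKM per gene with Cufflinks 2.0.2, and these FPKM values were deposited per sample. The gene annotation is not given in the sources used here.

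Groups came from the sample labels. A group-means model of log2(FPKM + 1) over all 12 samples was run in limma 3.58.1 (R 4.3.3), with an intensity trend, on the 11191 rows of at least 1 FPKM in at least 1 sample. P-values were adjusted by Benjamini-Hochberg over these rows, with a threshold of 0.05, and every adjusted p given is from limma unless a Tukey test is named. They measure the spread between these samples. The script was tested on simulated data. Relative depth was read from the steps of values under 0.3 FPKM in rows with 1 start site. FPKM files give no counts, so no counting interval is given.

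All 8 genes are described whatever their values. Genes of the 4 other lists are counted, and those past the threshold in the interaction or in either comparison of IL-4-treated with untreated cells at the same LPS state, or with high levels, may be named. The rows most like a gene are the 3 with the highest Pearson r among rows with a mean of at least 1 FPKM. The 8 genes and the lists were chosen with earlier results of these data known. Alternatives were another pseudocount (0.1), other expression filters, quantile normalization, median scaling, no trend, only the compared groups, a block for the replicate number, a Tukey test per row, each sample left out, and replicates 2 and 3 alone. Promoter windows are from RefSeq (GRCm38.p6), and gene extents were compared with GENCODE vM21.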

Additional observations from a re-analysis of the deposited data

Results flagged for a closer look

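A difference between the LPS effect in IL-4-pretreated cells and in cells without IL-4, tested as the interaction in limma over 12 samples, was found for the following genes on the log2(FPKM + 1) scale. Il1rap, the accessory receptor chain, had an interaction of 0.6124 (adjusted p = 0.0204). Among the other listed genes, Nlrp3, the inflammasome sensor, had 1.223 (adjusted p = 0.00188), with LPS minus control at 4.40. Pycard, the inflammasome adaptor, had -0.8131 (adjusted p = 0.00810). Irak3, the inhibitory IRAK, had -0.6396 (adjusted p = 0.0132). P2rx7, the ATP-gated channel, had 0.7875 (adjusted p = 0.0376), which was lost in 9 of the 12 fits with a sample left out and without the expression minimum. Il1rl2, the IL-36 receptor, which passed the minimum only through samples given IL-4, had -0.6551 (adjusted p = 0.0350), which was lost in 9 of these 12 fits, without the minimum (adjusted p = 0.0592) and under both scalings. Ube2n, a ubiquitin-conjugating enzyme, had -0.3907 (adjusted p = 0.0433), which was lost in 9 of these 12 fits, with a pseudocount of 0.1 and with median scaling. The interactions of Nlrp3, Pycard and Irak3 passed in every alternative fit that was run.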

How the results depend on the processing

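The calls of Il1rn, Il18 and Il1rap in IL-4+LPS minus LPS held under every alternative run. The cause of the changes given next was not tested. Of the 8 genes, IL-4 minus control called 3 (37.0% of all rows tested), and 6 in replicates 2 and 3 alone (50.9%). The interaction called 1 gene (9.2% of all rows tested). Without the expression filter, which lets Il1r2 in, it called 2 (3.96%), and with quantile normalization 0 (10.8%). In replicates 2 and 3 alone it called 5 (25.6%), and with a sample left out 0 to 2 (5.76% to 11.1%). Same-numbered samples had correlations of their deviations from group means of 0.0024 to 0.386 over 18 pairs, 11 of them over 0.1. Of 12 samples, 9 correlated best with their own number. Samples of the same number thus shared some variation, but the labels do not state a pairing. As not every pair was over 0.1, the main fit does not treat the numbers as pairing. With the replicate block the interaction called 3 genes, Il1rap, Il1rn (adjusted p = 0.0482) and Il18bp (0.0380), and 20.0% of all rows in place of 9.2%. The block also called Il18bp in IL-4 minus control (0.00320) and IL-4+LPS minus IL-4 (0.00395), and changed no other call of the 7 tested genes.

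Signs turned for differences that had not passed the test. Il1b in IL-4+LPS minus LPS was 0.0779 in replicates 2 and 3 alone and -0.8001 to 0.3915 with a sample left out. The Il18 interaction ran from -0.05383 to 0.133 with a sample left out. Il18bp in LPS minus control was 0.08856 with quantile normalization, 0.2837 with median scaling, 0.02158 in replicates 2 and 3 alone and -0.2523 to 0.1831 with a sample left out, and in IL-4+LPS minus LPS 0.01274, 0.01292 (the same scalings) and -0.1669 to 0.1586 (a sample left out). The Il1r1 interaction was 0.1666 and 0.007962 with these scalings and -0.1948 to 0.01852 with a sample left out, and Il1rap in IL-4 minus control 0.1282, 0.009901 and -0.05352 to 0.04817.

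The share of all rows called was 74.6%, 37.0%, 72.9%, 30.9% and 9.2% in the 5 comparisons, in the order of the report. Without the filter, which adds rows near 0, it was 36.8%, 16.4%, 34.5%, 12.3% and 3.96%. The Tukey test gave 21.3% for IL-4 minus control and 17.2% for IL-4+LPS minus LPS, and replicates 2 and 3 alone gave 46.9% for IL-4+LPS minus LPS and 25.6% for the interaction. The interaction share was 5.89% without IL-4 replicate 3 and 5.76% without LPS replicate 3. Of 33 calls of the other listed genes, recomputed under alternatives chosen after seeing the data, 16 held in every fit and 0 turned sign. Il1r2 rests on an inferred 1 to 20 fragments a sample.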

Other observations

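A pair of other family ligands stayed under the expression minimum and were read above 0 only in cells given LPS. Il33, which encodes the alarmin IL-33, was at 0.366 and 0.346 FPKM in LPS replicates 2 and 3, at 0.0563 and 0.0362 FPKM in IL-4+LPS replicates 2 and 3, and listed at 0 in the other 8 samples, both LPS-exposed samples of replicate 1 included. Il1f6, which encodes IL-36α, was at 0.119, 0.188 and 0.256 FPKM in LPS, at 0.0965 FPKM in IL-4+LPS replicate 2, and listed at 0 in the other 8 samples. These genes were chosen for mention after their values were seen, and no test was run on them.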
